A study of Mus musculus with 464 samples.

Results

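A group of 10 genes that encode neural RNA binding and splicing regulators were followed in single mouse cells: Elavl2, Elavl3, Elavl4, Nova1, Nova2, Rbfox3, Srrm4, Msi1, Ptbp1 and Ptbp2. These were chosen by name, with earlier results of these data known but by no threshold on their values, and all 10 of them are among the 21973 genes of the expression table. All samples are single cells of 1 group, derived from R1, a mouse embryonic stem cell line kept undifferentiated with 1000 U/ml of the cytokine LIF and 15% serum replacement. Embryoid bodies were formed by 48 hours in hanging drops and then spent 4 days in medium with retinoic acid, at a dose that the labels give as 0.5 mM. Retinoic acid is a vitamin A derivative that drives embryonic stem cells toward neural and, in part, extraembryonic endoderm fates. Cells were captured on a microfluidic instrument (Fluidigm C1), cDNA was made with SMART-Seq V4, a full-length chemistry without molecular identifiers, and libraries were made with Nextera XT. No untreated cells and no other time point were analysed here. Since nothing in the labels tells cultures apart, all cells count as 1 sample. Shares of cells are therefore given with exact Clopper-Pearson 95% intervals that cover counting error only, and no p-value is given.

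RNA binding proteins shape the transcripts of a neuron after transcription, by choosing exons and by setting how long and where an mRNA is translated. Ptbp1, found in most non-neural cells, blocks many exons that neurons include, and its relative Ptbp2 is known to take over as cells become neurons. Srrm4 promotes the inclusion of very short neuronal exons, the Nova and Rbfox proteins bind defined sequence elements beside alternative exons, the neuronal Elavl (Hu) proteins bind AU-rich elements and regulate splicing and mRNA stability, and Msi1 is a translational regulator of neural stem cells. The table gives 1 value per gene, so none of the values speaks to which exons were used.

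The sequences around a listed start of 3 genes are shown because these genes represent the main patterns described here: Elavl3 and Srrm4 were higher, and Ptbp1 lower, in the most neuron-like cells. Each window runs from 250 bases before to 50 bases after a RefSeq start on assembly GRCm38.p6 (the mm10 build). It is written 5′ to 3′ on the gene's strand. That start need not be the outer end of the locus. The Srrm4 window lies wholly inside its locus, which ends at 116592562. The Elavl3 window spans the locus end at 22052146 but is not set on it, whereas the Ptbp1 window is set on the locus start at 79854432. Capitals mark matches to CAGATG or CAGCTG, a pair of E-box motifs of the kind that proneural basic helix-loop-helix factors bind.
Elavl3, chr9:22051974-22052273, minus strand: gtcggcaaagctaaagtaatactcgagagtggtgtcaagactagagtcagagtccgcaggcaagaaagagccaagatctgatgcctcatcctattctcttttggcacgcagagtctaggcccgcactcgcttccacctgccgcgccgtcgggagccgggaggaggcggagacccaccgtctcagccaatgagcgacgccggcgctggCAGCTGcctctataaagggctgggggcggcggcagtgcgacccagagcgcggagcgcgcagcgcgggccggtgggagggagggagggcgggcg
Srrm4, chr5:116591768-116592067, minus strand: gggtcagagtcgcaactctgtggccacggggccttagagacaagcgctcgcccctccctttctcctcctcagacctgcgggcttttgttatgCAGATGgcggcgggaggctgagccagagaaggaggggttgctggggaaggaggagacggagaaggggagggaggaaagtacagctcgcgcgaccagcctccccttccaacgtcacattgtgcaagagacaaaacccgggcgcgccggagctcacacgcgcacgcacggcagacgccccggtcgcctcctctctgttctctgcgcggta
Ptbp1, chr10:79854182-79854481, plus strand: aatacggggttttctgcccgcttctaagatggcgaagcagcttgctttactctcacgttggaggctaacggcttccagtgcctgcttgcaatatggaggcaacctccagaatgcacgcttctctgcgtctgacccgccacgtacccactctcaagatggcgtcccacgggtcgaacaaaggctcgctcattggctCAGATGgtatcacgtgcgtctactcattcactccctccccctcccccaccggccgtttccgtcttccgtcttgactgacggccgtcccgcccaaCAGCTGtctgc
The Elavl3 window holds 1 CAGCTG, the Srrm4 window 1 CAGATG, and the Ptbp1 window 1 of each. Windows were at hand for 9 of the 10 genes, Msi1 being the exception, and there were 17 windows because Elavl2 and Elavl4 have more than 1 start. Read on both strands, CAGATG was in 5 of these 17 windows, from Elavl4, Ptbp1 and Srrm4, and in 17.2% of 32841 windows of all genes. CAGCTG, which reads the same on both strands, was in 8 of the 17, from Elavl2, Elavl3, Elavl4, Nova1 and Ptbp1, and in 16.3% of all windows. Some windows of Elavl2 and of Elavl4 overlap and show the same site more than 1 time. Counted by gene, CAGATG was in 3 of 9 and in 19.2% of all genes with a window. CAGCTG was in 5 of 9 and in 18.3%. With 9 genes, some of them with many windows, no excess is read from these counts. Ptbp1 thus holds the same motifs as genes with the opposite pattern. A match is only a match of letters.

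The unit of the values is not stated, and they are read here as TPM, which is transcript abundance per gene length relative to all transcripts of a cell. The listed genes hold 54.2% to 95.1% of the total that TPM gives a cell. Detection means a value of at least 1 TPM. Cells entered with 2000 or more genes above 0 and a mitochondrial share of no more than 20%, which removed 6 of them. Read depth is unknown, since TPM does not keep it, and the number of genes above 0 is the only stand-in. It ran from 2059 to 10256 with a median of 6740. The columns fall into 2 sets by name, and for 55 columns of set 1 a near copy was present in set 2. Log2(TPM + 1) across genes correlated at 0.95 to 0.99 in these pairs, against at most 0.92 for any other pair of columns. The set 2 column of each pair was left out, so that each distinct cell counts 1 time. Detection of Ptbp2 gave the same call in both columns of 98.2% of the 55 pairs, that of Rbfox3 also in 98.2%, and those of Nova1, Srrm4 and Ptbp1 each in 96.4%. Agreement was lowest for Elavl4, at 78.2%, and Msi1, at 76.4%. The 12 Elavl4 pairs with only 1 detected column reached no more than 9.35 TPM in that column, and the 13 such Msi1 pairs no more than 6.37 TPM. Values of a few TPM for these genes were thus often found in only 1 column of a pair. In most cases that was the set 2 column, the one left out. Whether such values were missed in 1 column or spurious in the other was not tested. Higher values found in only 1 column were few, and the highest of any of the 10 genes was 17.3 TPM, for Elavl3.

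**Figure D1:**
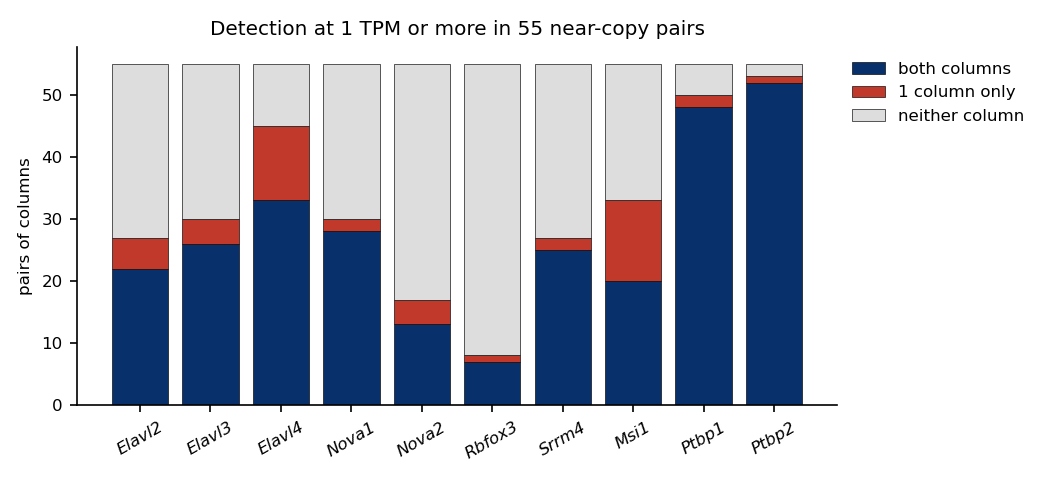
Number of the 55 near-copy column pairs (y axis) in which each of the 10 genes was at 1 TPM or more in both columns, in 1 column only or in neither. The 1-column part is largest for Msi1, with 13 pairs, and Elavl4, with 12 pairs.

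Cells were grouped by marker lists that hold none of the 10 genes. Neural cells had at most 3 of 12 extraembryonic endoderm markers (Gata4, Gata6, Sox17 and others) and at least 4 of 10 neural progenitor markers (Sox1, Sox2, Pax6 and others) or 8 of 15 neuron markers (Tubb3, Dcx, Stmn2 and others). Such cells were 65.8% of the distinct cells. Neural cells were ordered by the mean log2(TPM + 1) of the neuron markers minus that of the progenitor markers and divided into 5 bins of 53 cells, from bin 1 at the progenitor end to bin 5 at the neuron end. Endoderm-marker cells, 54 in all or 13.4%, had at least 6 endoderm markers and reached neither neural threshold. Another 54 cells had at least 6 endoderm markers together with a neural set, and 30 cells fell between these groups. The median cell of bin 1 had 9 of 10 progenitor and 4 of 15 neuron markers, that of bin 5 had 4 and 14, and the median endoderm-marker cell had 1 of each. Markers of glia, neural crest, mesenchyme, and endothelium and blood were at a median of 0 or 1 per cell in every bin and in endoderm-marker cells, and pluripotency markers at 2 of 6 in endoderm-marker cells. Many cells lay near a boundary: 28 cells were within 0.25 of the boundary between bins 1 and 2, 32 within 0.25 of that between bins 2 and 3, and 60 cells had 3 or 4 endoderm markers. Both columns of a near-copy pair fell into the same group (neural, endoderm-marker, both or between) in 51 of 55 pairs (92.7%). Median genes above 0 were 6624 to 7020 over the 5 bins, 5958 in endoderm-marker cells and 7980.5 in cells with both kinds of markers. Set 1 gave 77.4% of bin 1 and 47.2% of bin 5, so folds are also given within each set. For these, the columns of 1 set were grouped, ordered and divided into 5 bins anew. Bins 1 and 5 then held 32 and 31 cells in set 1 and 29 and 28 cells in set 2. The set 2 folds include the near-copy columns left out elsewhere, so the 2 sets share cells.

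Across all distinct cells the genes differed widely in how often they were found. Ptbp2 was detected in 95% of cells, Ptbp1 in 82.9% and Elavl4 in 72%. Nova1 (57.6%), Elavl3 (56.8%), Srrm4 (52.4%), Elavl2 (48.9%) and Msi1 (48.4%) lay in the middle. Nova2, at 28.8%, and Rbfox3, at 18.1%, were the 2 genes found in the fewest cells. As levels per length, mean TPM was 157.2 for Elavl4, 112.8 for Ptbp2 and 52.9 for Ptbp1, against 10.3 for Elavl2, 10.1 for Nova1, 7.07 for Elavl3, 5.82 for Srrm4, 2.87 for Msi1, 2.62 for Rbfox3 and 1.12 for Nova2. Elavl4 had the highest mean although it was detected in fewer cells than Ptbp1 or Ptbp2.

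**Figure D2:**
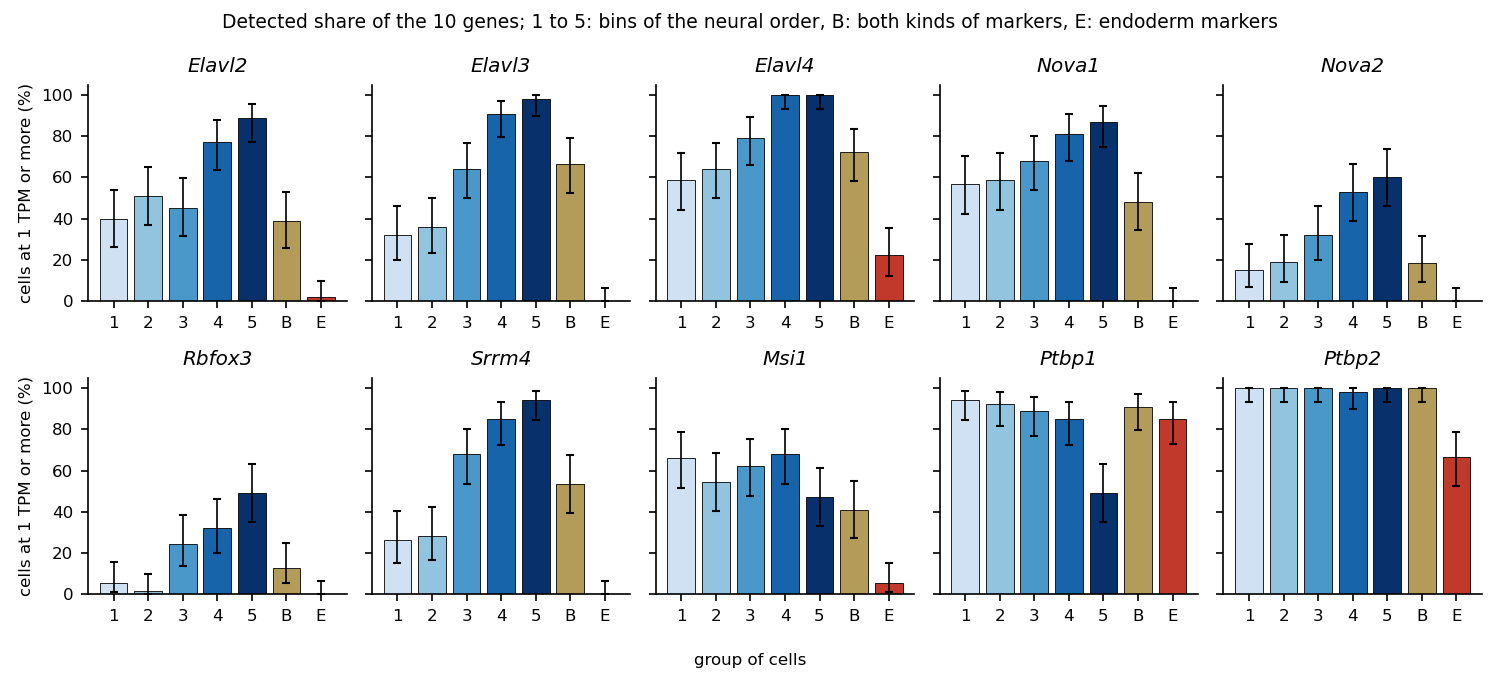
Percent of cells at 1 TPM or more (y axis) for each gene in bins 1 to 5 of the neural cells (53 cells each), in cells with both kinds of markers (B, 54) and in endoderm-marker cells (E, 54). Error bars are exact 95% intervals for counting error, and Ptbp1 is the only gene of the 10 whose share is lower in a bin than in the bin before it with intervals that do not overlap (49.1% in bin 5 against 84.9% in bin 4).

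Along the neural order, 7 of the 10 genes had a mean TPM at least 2-fold higher in bin 5 than in bin 1 (Elavl2, Elavl3, Elavl4, Nova1, Nova2, Rbfox3 and Srrm4), 1 was at least 2-fold lower (Ptbp1), and Msi1 and Ptbp2 stayed within 2-fold. Of all 13582 genes at 1 TPM or more in at least 10 cells, 23.8% were at least 2-fold higher and 17.4% at least 2-fold lower by the same rule. The median log2 fold was 2.75 for the 10 genes and 0.09 for all genes tested. The genes were chosen as neural regulators, so their direction is a description. Folds here have 0.01 TPM added to both means.

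Among the neuronal Elavl genes, Elavl4 stood far above the others in level. Elavl4 (HuD; chromosome 4, 110203737 to 110351939) had a lowest, median and highest value of 0, 3.93 and 186.9 TPM in bin 1. These values were 0, 66.4 and 716.8 TPM in bin 3, 5.37, 211.3 and 1053.2 TPM in bin 4, and 93.5, 451.4 and 1160.1 TPM in bin 5. Every cell of bins 4 and 5 had the transcript, and the lowest cell of bin 5 lay above the median of bin 3. Ranges of bins 1 and 5 still overlapped, through the highest cells of bin 1. Mean TPM was 19.5, 20.2, 119.4, 267.8 and 507.1 from bin 1 to bin 5, a log2 fold of 4.70 between the ends, with 4.79 in set 1 and 4.72 in set 2. Among all genes tested, 545 had a larger fold. The detected share was 58.5% (44.1 to 71.9) in bin 1 and 100% (93.3 to 100) in bin 5. The bin 1 share is uncertain, because Elavl4 values of a few TPM were often found in only 1 column of a near-copy pair.

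Elavl3 (HuC; chromosome 9, 22015005 to 22052146), a gene restricted to neurons in the adult, was far lower in level. Its lowest, median and highest values were 0, 0.16 and 17.4 TPM in bin 1 and 0.79, 16.3 and 66 TPM in bin 5. Detection went from 32.1% (19.9 to 46.3) through 35.8%, 64.2% and 90.6% to 98.1% (89.9 to 100), and between neighbouring bins the intervals stood apart only from bin 3 to bin 4. The log2 fold of bin 5 over bin 1 was 3.71, with 3.52 in set 1 and 4.07 in set 2. Elavl2 (HuB; chromosome 4, 91211533 to 91400108), the member of this family also known from the germ line, went less steadily. It was detected in 39.6% (26.5 to 54), 50.9%, 45.3%, 77.4% and 88.7% (77 to 95.7) of cells from bin 1 to bin 5, and again only bins 3 and 4 stood apart. Values were 0, 0 and 56.7 TPM at the lowest, median and highest in bin 1 and 0, 22.3 and 163.9 TPM in bin 5. The log2 fold was 2.54, with 2.33 in set 1 and 2.30 in set 2. At least 1 cell of bin 1 thus exceeded the median of bin 5 for both genes, while most cells of bin 1 were near 0.

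All 3 of these Elavl genes were detected together in 13.2% (5.48 to 25.3) of bin 1 cells, 13.2% of bin 2, 30.2% of bin 3, 69.8% of bin 4 and 86.8% (74.7 to 94.5) of bin 5. None of the 3 was detected in 13, 10 and 6 cells of bins 1, 2 and 3, and in no cell of bins 4 and 5. In bin 1, 11 cells had Elavl4 alone, 7 had Elavl2 alone and none had Elavl3 alone. The count with Elavl4 alone carries the same uncertainty as the Elavl4 share of bin 1. Elavl4 made up 73% of the summed mean TPM of the 3 genes in bin 1 and 90.5% in bin 5. The genes are paralogs, so reads could in principle be shared. In the longest transcripts of the reference annotation the longest identical stretch was 29 bases between Elavl3 and Elavl4, 23 between Elavl2 and Elavl4 and 17 between Elavl2 and Elavl3, and no pair shared a window of 50 bases.

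Srrm4 (nSR100; chromosome 5, 116439268 to 116592562), of which a window inside the locus is printed above, was higher in cells from bin 3 onward. Its lowest, median and highest values were 0, 0 and 8.75 TPM in bin 1, 0, 0 and 17.3 TPM in bin 2, 0, 4.40 and 55 TPM in bin 3, 0, 9.23 and 39.8 TPM in bin 4 and 0, 9.09 and 70.2 TPM in bin 5. The medians of the last 2 bins were level, and every bin still had cells at 0. Detection was 26.4% (15.3 to 40.3) in bin 1, 28.3% (16.8 to 42.3) in bin 2, 67.9% (53.7 to 80.1) in bin 3, 84.9% in bin 4 and 94.3% (84.3 to 98.8) in bin 5. The intervals of bins 2 and 3 did not overlap. Mean levels of Elavl3 and Elavl4 also differed between these bins, with 2.28 and 6.45 TPM for Elavl3 and 20.2 and 119.4 TPM for Elavl4. The log2 fold of bin 5 over bin 1 was 3.81, with 3.12 in set 1 and 3.74 in set 2. It ran from 1.93 to 4.10 over all other ways of processing. Srrm4 overlaps the noncoding gene Srrm4os, and whether the counting used strand is not given in the sources used here, so reads of the overlap cannot be told apart.

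Rest, a repressor of neuronal genes that is known to act on Srrm4 and whose transcript Srrm4 is known to splice, had the opposite course. It was detected in 69.8%, 62.3%, 50.9%, 47.2% and 13.2% (5.48 to 25.3) of cells from bin 1 to bin 5, with mean TPM of 5.46, 5.41, 4.67, 2.23 and 1.27. In bin 5 a total of 6 of the 50 cells with Srrm4 also had Rest (12%), whereas in bin 3 these were 17 of 36 (47.2%). Both shares were near those of Rest in all cells of the same bins, 13.2% and 50.9%. Cells with Srrm4 had Rest less often than cells without it in every bin but bin 2, where the shares were 73.3% and 57.9%. In bin 5 only 3 cells lacked Srrm4. Of 8 genes listed as Rest and its cofactors, 2 were at least 2-fold lower in bin 5 than in bin 1 (Rest and Ctdsp1) and none was higher. With 8 genes, 2 is 25% against 17.4% of all genes tested, and no weight can be put on the list's count. The corepressor gene Rcor1, for example, had 7.89 TPM in bin 1 and 9.04 TPM in bin 5.

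**Figure D3:**
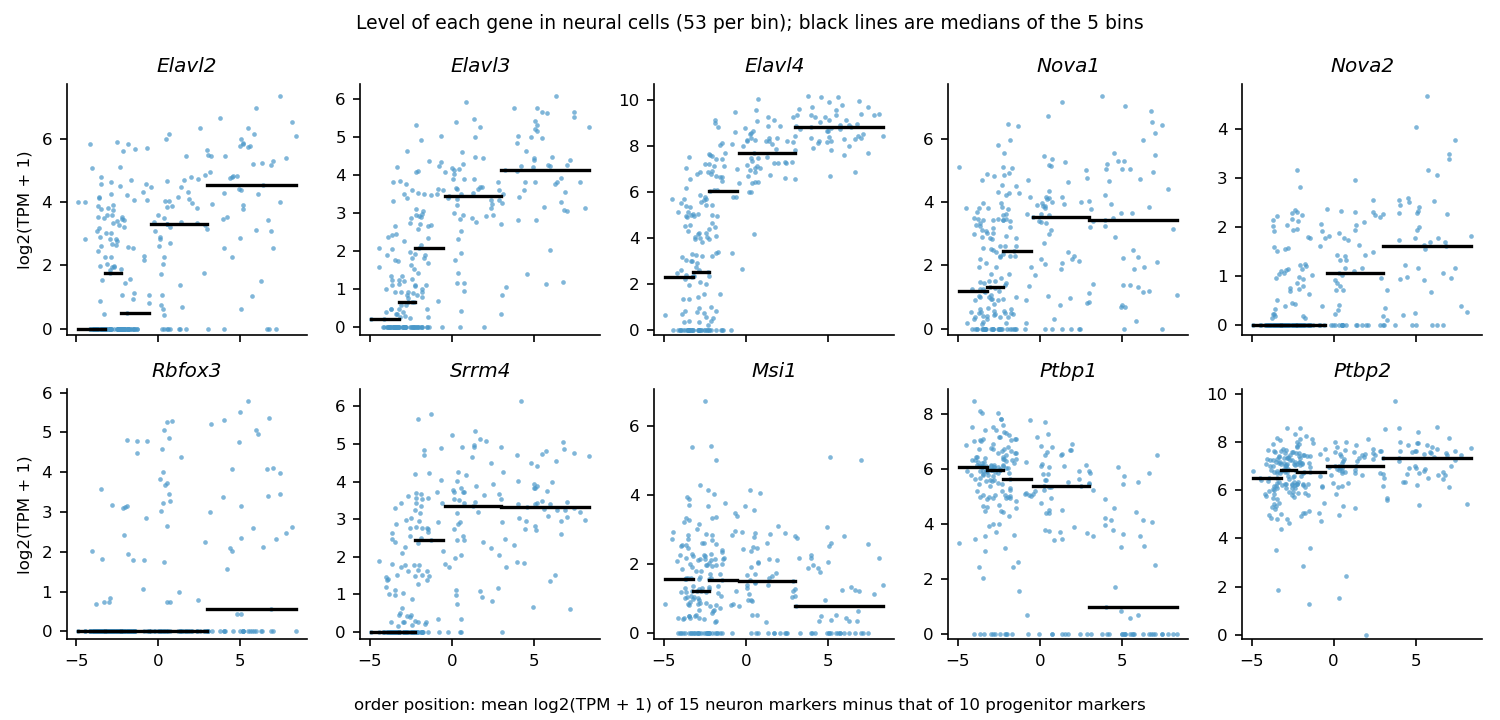
Log2(TPM + 1) of each gene (y axis, own scale per panel) against the position in the neural order (x axis, mean log2 of 15 neuron markers minus that of 10 progenitor markers) in the neural cells (5 bins of 53), with a black line at each bin's median. Elavl4 has every cell of the last 2 bins above 5 TPM, whereas Rbfox3 has a median of 0 in bins 1 to 4 and Ptbp1 has 23 cells at 0 in bin 5.

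Ptbp1 and Ptbp2, the polypyrimidine tract binding proteins, went different ways. Ptbp1 (chromosome 10, 79854432 to 79864435) had a lowest, median and highest value of 0, 66.1 and 353.6 TPM in bin 1, 0, 60.3 and 258.5 TPM in bin 2, 0, 48.1 and 219.96 TPM in bin 3, 0, 40.3 and 205.9 TPM in bin 4 and 0, 0.98 and 89.8 TPM in bin 5. The medians of bins 1 to 4 were between 40.3 and 66.1 TPM and that of bin 5 was near 0, with 23 of its 53 cells at exactly 0. Detection was 94.3% (84.3 to 98.8), 92.5%, 88.7%, 84.9% (72.4 to 93.3) and 49.1% (35.1 to 63.2), with intervals that stood apart only between bins 4 and 5. Mean TPM was 75 in bin 1 and 14.6 in bin 5, which is 5.14-fold lower and a log2 fold of -2.36. The size differed between column sets, with -1.41 in set 1 and -3.05 in set 2. Ptbp1 shares 3961 bases of its locus with the protein-coding gene Plppr3, and reads of that stretch cannot be told apart if strand was not used.

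Ptbp2 (nPTB; chromosome 3, 119718741 to 119784647) was already present at the progenitor end. Its lowest, median and highest values were 2.57, 89 and 291.2 TPM in bin 1 and 40.4, 162.4 and 844.4 TPM in bin 5, so that the ranges overlapped widely. It was detected in all cells of bins 1, 2, 3 and 5 and in 98.1% of bin 4. Mean TPM was 104.3, 122.7, 127.4, 134.7 and 178.05 over the bins, a log2 fold of 0.77 that is short of 2-fold, with 0.82 in set 1 and 0.55 in set 2.

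Because TPM is per length, levels of the 2 paralogs can be set side by side within a cell. Ptbp2 was above Ptbp1 in 67.9% (53.7 to 80.1) of bin 1 cells, 86.8% of bin 2, 71.7% of bin 3, 86.8% of bin 4 and 100% (93.3 to 100) of bin 5. The ratio of mean TPM, Ptbp2 over Ptbp1, was 1.39, 1.80, 2.07, 2.70 and 12.2. The number of cells with Ptbp2 but no detected Ptbp1 was 3, 4, 6, 8 and 27 of 53. No neural cell of bin 1 had Ptbp1 without Ptbp2. The ratio therefore differed between the ends of the order mostly through Ptbp1, whose mean was 5.14-fold lower, and less through Ptbp2, whose mean was 1.71-fold higher. The longest stretch common to the transcripts of these paralogs was 14 bases.

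**Figure D4:**
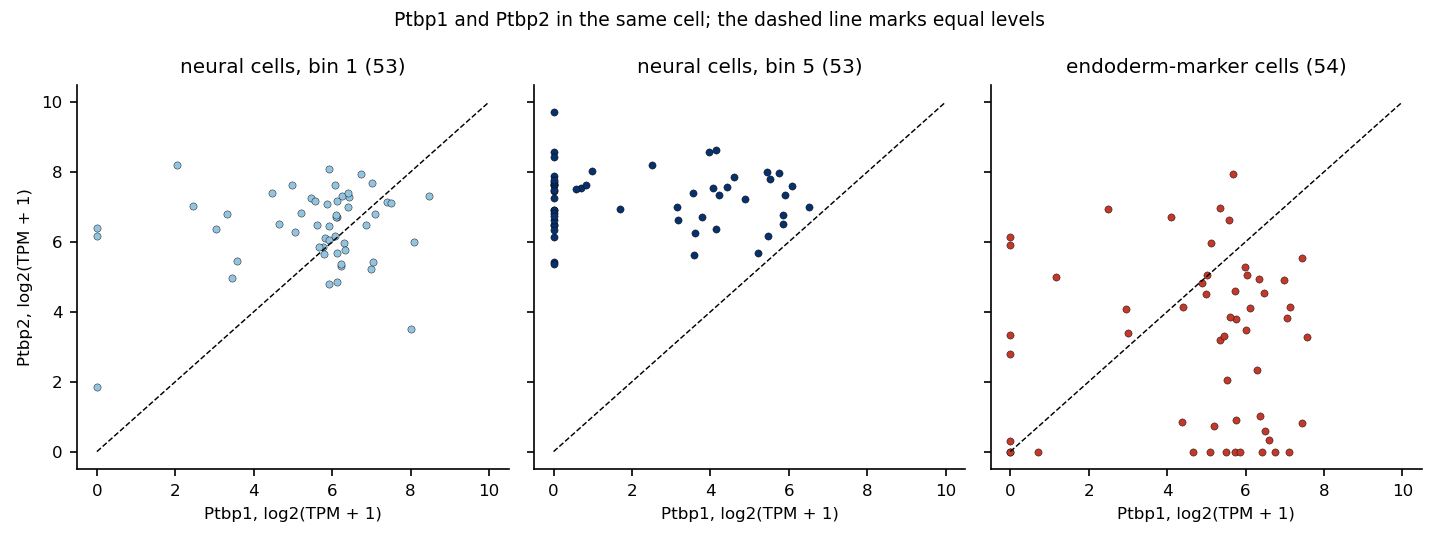
Log2(TPM + 1) of Ptbp2 (y axis) against Ptbp1 (x axis) in the same cell for neural bin 1 (53 cells), neural bin 5 (53 cells) and endoderm-marker cells (54 cells), with a dashed line at equal levels. All 53 cells of bin 5 lie above the line, 36 of 53 cells of bin 1 do, and in endoderm-marker cells 15 of 54 do.

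Srrm4 and Ptbp1 are both known to act on neuronal exons, in opposite directions, and their transcripts were found together in many cells. Among cells with Srrm4, Ptbp1 was also detected in 12 of 14 in bin 1, 15 of 15 in bin 2, 33 of 36 in bin 3 (91.7%, 77.5 to 98.2), 38 of 45 in bin 4 (84.4%) and 24 of 50 in bin 5 (48.0%, 33.7 to 62.6). In bins 3 and 4, where Srrm4 was already in most cells, most Srrm4 cells thus still had Ptbp1. Cells without Srrm4 had Ptbp1 in 14 of 17 in bin 3 (82.4%) and 7 of 8 in bin 4 (87.5%). The overlap in these bins was therefore near the share of Ptbp1 in all their cells, 88.7% and 84.9%. Over the neural cells, Pearson's r of log2(TPM + 1) between the 2 genes was -0.35. This r describes cells of 1 sample.

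The Nova genes, splicing factors first described as antigens in a paraneoplastic motor disorder, were both higher toward the neuron end. Nova1 (chromosome 12, 46697895 to 46819480) had a lowest, median and highest value of 0, 1.26 and 33.8 TPM in bin 1, 0, 10.7 and 144.5 TPM in bin 4 and 0, 9.94 and 164.5 TPM in bin 5. Its detected share was 56.6%, 58.5%, 67.9%, 81.1% and 86.8% (74.7 to 94.5) over the bins, and no neighbouring intervals stood apart. The log2 fold of bin 5 over bin 1 was 2.47, with 1.75 in set 1 and 3.13 in set 2. Nova2 (chromosome 7, 18925888 to 18965319) was lower in level throughout, with 0, 0 and 3.68 TPM in bin 1 and 0, 2.04 and 24.4 TPM in bin 5. Its detected share was 15.1% (6.75 to 27.6), 18.9%, 32.1%, 52.8% and 60.4% (46 to 73.5), a slow slope with no step between neighbouring bins. The log2 fold was 2.96, with 2.58 in set 1 and 3.70 in set 2, and it ran from 1.21 to 3.76 over all other ways of processing. Mean TPM of Nova1 was above that of Nova2 in each of the 5 bins, with 24.7 against 3.17 in bin 5.

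Rbfox3 (chromosome 11, 118489760 to 118911597) encodes NeuN, the nuclear antigen used to mark mature neurons. Its lowest, median and highest values were 0, 0 and 11 TPM in bin 1, 0, 0 and 38.1 TPM in bin 4 and 0, 0.48 and 54.7 TPM in bin 5. Cells with the gene made up 5.66% (1.18 to 15.7), 1.89%, 24.5% (13.8 to 38.3), 32.1% and 49.1% (35.1 to 63.2) of the bins, with intervals apart between bins 2 and 3. In bin 5, where Elavl4 was in all cells, 24 of 53 cells had Rbfox3 at exactly 0. The log2 fold was 4.60, but bin 1 rests on 3 cells with the gene. The fold was 6.04 in set 1, 3.62 in set 2 and 5.72 without the highest cell of each bin. Over all other ways of processing it ran from 1.65 to 7.14.

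Msi1 (Musashi-1; chromosome 5, 115359059 to 115455698), a marker of neural stem cells, was low in all bins. Its lowest, median and highest values were 0, 1.94 and 40.5 TPM in bin 1, 0, 1.31 and 105.01 TPM in bin 2 and 0, 0.71 and 32.8 TPM in bin 5. Detection was 66% (51.7 to 78.5), 54.7%, 62.3%, 67.9% and 47.2% (33.3 to 61.4) over the bins, and all neighbouring intervals overlapped. The log2 fold of bin 5 over bin 1 was -0.43, and it ran from -0.81 to 0.14 over other ways of processing, so no direction was called. Its agreement between near-copy columns was also the lowest of the 10 genes. The longest stretch common to the transcripts of Msi1 and its paralog Msi2 was 44 bases, the longest of any paralog pair compared. Msi2 had a mean of 12.8 TPM in bin 1, and whether reads were shared between the 2 genes was not tested.

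Most of these transcripts were rare or undetected in endoderm-marker cells, apart from Ptbp1, Ptbp2 and, in 22.2% of these cells, Elavl4. Of the 10 genes, 9 had a mean TPM at least 2-fold lower than in neural cells, none was higher, and Ptbp1 was within 2-fold. Among all genes tested, 31.7% were at least 2-fold lower and 19.3% at least 2-fold higher. The median log2 fold was -6.94 for the 10 genes and -0.34 for all genes tested. In this culture, endoderm-marker cells had fewer genes above 0 than neural cells, with medians of 5958 and 6740, and what part this has in the lower values was not tested.

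Elavl3, Nova1, Nova2 and Srrm4 were each detected in 0 of 54 endoderm-marker cells, which allows a share of up to 5.56% when a limit of 3 cells is used and 6.6% by the exact interval. Their highest values in these cells were 0.76, 0.51, 0.28 and 0.22 TPM. The corresponding shares of neural cells were 64.2%, 70.2%, 35.8% and 60.4%. Rbfox3 was listed at 0 in all 54 cells and was detected in 22.6% of neural cells. Elavl2 was found in 1 of 54 cells (1.85%), at 1.73 TPM, against 60.4% of neural cells. In mean TPM the log2 folds were -7.82 for Elavl2, -8.00 for Elavl3, -8.33 for Nova1, -6.06 for Nova2 and -7.86 for Srrm4. These folds depend on the 0.01 TPM added, because the endoderm means were 0.010 to 0.048 TPM.

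Elavl4 was the exception among the neuronal genes. It was detected in 12 of 54 endoderm-marker cells, 22.2% (12 to 35.6), with a lowest, median and highest value of 0, 0 and 162.3 TPM and a mean of 4.72 TPM against 186.8 TPM in neural cells. A single cell held 63.7% of the endoderm-marker total, and the log2 fold was -5.30 with all cells and -6.71 without the highest cell of each group. The highest cell lay within the range of bin 1, where 58.5% of cells had the gene, whereas 35 of the 54 cells were at 0. The 90th percentile in endoderm-marker cells was 4.27 TPM. Elavl4 values of that size were often found in only 1 column of a near-copy pair, at up to 9.35 TPM. The detected share of 22.2% is therefore uncertain. Of the 13 endoderm-marker cells with any of Elavl2, Elavl3 and Elavl4, 12 had Elavl4 alone, 1 had Elavl2 alone and none had a pair. Endoderm-marker cells had a median of 1 of 15 neuron markers, and whether the Elavl4 values come from these cells or from RNA of other cells was not tested. Msi1 was detected in 3 of 54 cells (5.56%) with a highest value of 17 TPM, and its log2 fold was -2.97, with -5.54 in set 1, -2.30 in set 2 and -4.41 without the highest cell of each group.

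Ptbp1 had similar levels in both kinds of cells. Its lowest, median and highest values were 0, 46 and 189.1 TPM in endoderm-marker cells and 0, 43 and 353.6 TPM in all neural cells. The means were 54.7 and 53.8 TPM, a log2 fold of 0.02, with -0.17 in set 1 and 0.20 in set 2. Within the neural cells, the endoderm mean lay between those of bin 3 (61.6) and bin 4 (49.9). Ptbp2 had 0, 9.80 and 244.1 TPM in endoderm-marker cells and 0, 120.3 and 844.4 TPM in neural cells. It was detected in 66.7% (52.5 to 78.9) of the former and 99.6% of the latter, with mean TPM of 25.7 and 133.4 and a log2 fold of -2.37. Ptbp2 was above Ptbp1 in 27.8% (16.5 to 41.6) of endoderm-marker cells, and the interval lies below that of bin 1. A total of 14 endoderm-marker cells had Ptbp1 without Ptbp2, a pattern that no cell of bin 1 had.

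Rest was detected in 61.1% of endoderm-marker cells at a mean of 7.46 TPM, against 48.7% and 3.81 TPM in neural cells, and was within 2-fold. Of the 8 genes on the Rest list, 1 was at least 2-fold higher in endoderm-marker cells, Ctdspl, and 1 at least 2-fold lower, the corepressor gene Rcor2 (12.5% each, against 19.3% and 31.7% of all genes tested). Rcor2 had means of 0.569 TPM there and 9.09 TPM in neural cells.

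The 54 cells with both kinds of markers had all of the neuronal regulators at higher shares than endoderm-marker cells did. Elavl4 was detected in 72.2%, Elavl3 in 66.7%, Srrm4 in 53.7%, Nova1 in 48.1%, Msi1 in 40.7%, Elavl2 in 38.9%, Nova2 in 18.5% and Rbfox3 in 13% of them. Ptbp1 was in 90.7% and Ptbp2 in 100%. The median of genes above 0 in these cells, 7980.5, was above that of every other group, and whether some of them are 2 cells in 1 capture site was not tested.

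A wider list of 68 splicing and RNA binding genes, of which 67 passed the filter, gives the setting for these 10 genes. Between bins 5 and 1, 18 genes (26.9%) were at least 2-fold higher and 7 (10.4%) lower, against 23.8% and 17.4% of all genes tested. The higher share is thus near that of all genes, and the median log2 fold of 0.07 was close to the 0.09 of all genes. Of the 18, Esrp1 rests on a mean of 0.015 TPM in bin 5 with no cell at 1 TPM, so its place there carries no weight. Among the highest, Rbfox1, a paralog of Rbfox3, was listed at 0 in all cells of bin 1 and had a mean of 30.7 TPM and a detected share of 60.4% in bin 5. The CUGBP family genes Celf5 and Celf3 had log2 folds of 6.33 and 5.91, and Celf3 was detected in 90.6% of bin 5 and 3.77% of bin 1. Srrm3, a paralog of Srrm4 that acts on the same class of short exons, had a log2 fold of 5.45 with 33.3 TPM in bin 5, and Cpeb4, a regulator of poly(A) tails, had 5.29. Among the 5 lowest were Mbnl3 (-4.77), Raver2 (-4.30), Zfp36l1 (-3.00) and Zfp36l2 (-1.77), while Rbm20 was listed at 0 in all cells of bin 5 and had only 2 detected cells in bin 1. Raver2 encodes a partner of the Ptbp proteins and was detected in 37.7% of bin 1 and 5.66% of bin 5. Zfp36l1, which promotes decay of AU-rich mRNAs, had 53.8 TPM in bin 1 and 6.72 TPM in bin 5. Elavl1, the ubiquitous member of the Elavl family, lay outside these 5 and is named after its values were seen. It had 167.2 TPM in bin 1 and 61.2 TPM in bin 5, a log2 fold of -1.45, and was lower in the bin where its neuronal relatives were higher.

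Between endoderm-marker and neural cells, 9 genes of the wider list (13.4%) were at least 2-fold higher and 27 (40.3%) lower, against 19.3% and 31.7% of all genes tested. The median log2 fold was -0.76, against -0.34 for all genes. The 5 highest were the epithelial splicing regulators Esrp1 (6.61) and Esrp2 (5.93), with Rbm47 (6.51), Mbnl2 (3.04) and Rbpms (2.78). Rbm47 was detected in 64.8% of endoderm-marker and 1.89% of neural cells, whereas Esrp1 was in 11.1% and 0%, and 0 neural cells with it allow a share of up to 1.13% by the limit of 3 cells and 1.38% by the exact interval. Rbpms had mean TPM of 211.7 and 30.9. Among the lowest, Srrm3 had a log2 fold of -8.66 and Celf6 of -7.21, and Celf5, Khdrbs2 and Rbm24 were listed at 0 in all endoderm-marker cells, against detected shares of 19.2%, 14% and 16.2% in neural cells.

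**Figure D5:**
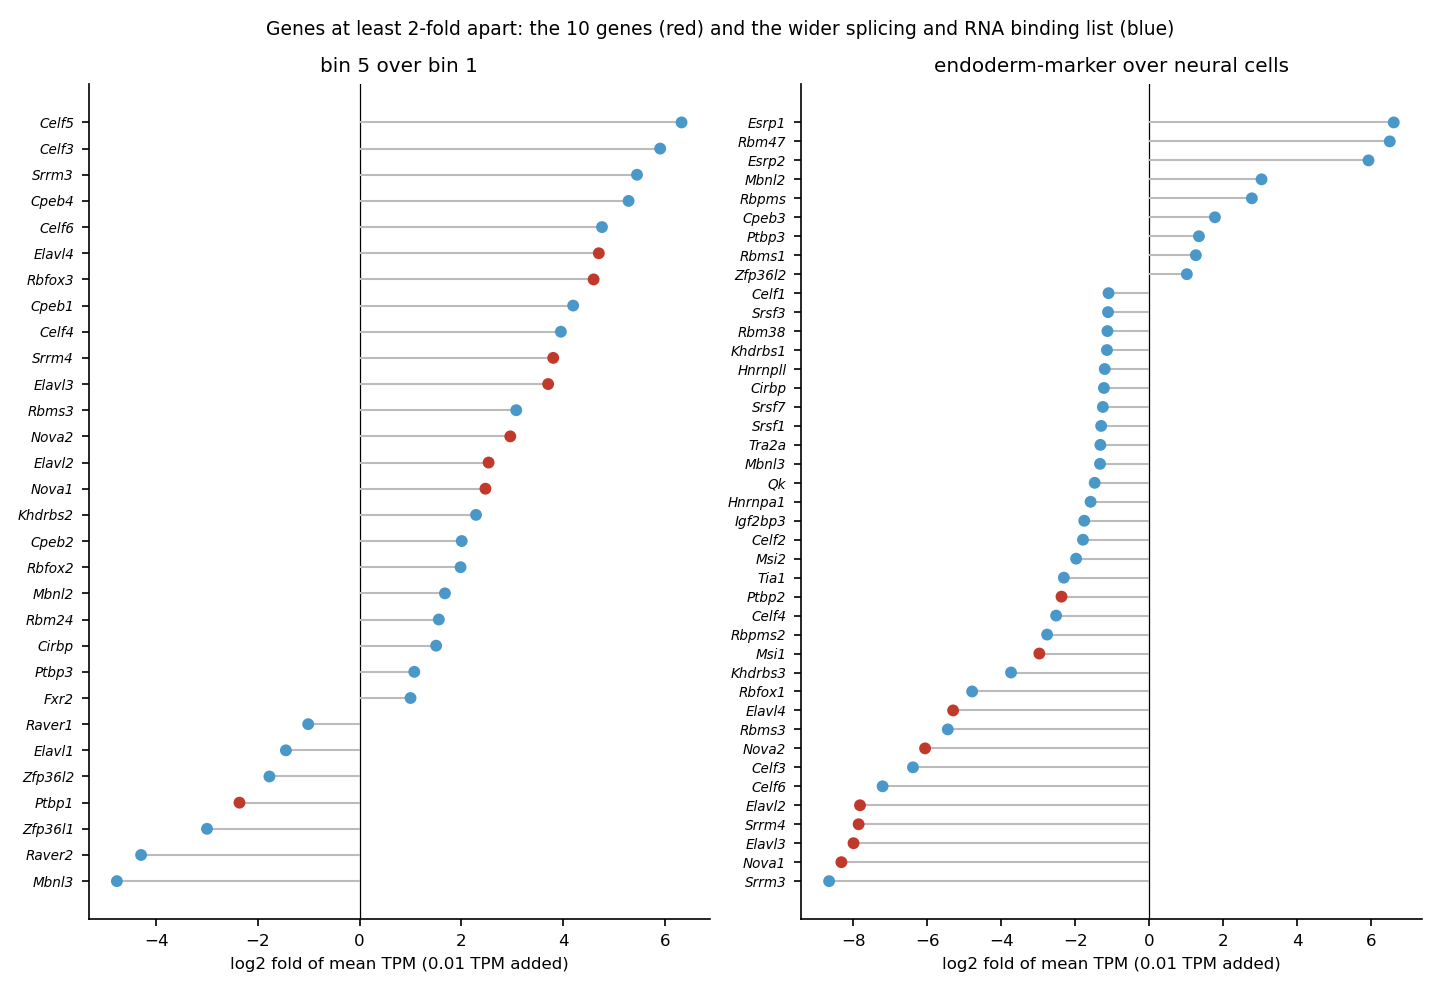
Log2 fold of mean TPM (x axis, 0.01 TPM added to both means) for those of the 10 genes (red) and of the wider list (blue) that were at least 2-fold apart and above 0 in both groups, for bin 5 over bin 1 (left) and endoderm-marker over neural cells (right). Ptbp1 is the only red point to the left of 0 in the left panel, and all red points in the right panel lie to the left of 0.

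For each gene, the 3 genes of most similar pattern were sought by Pearson's r of log2(TPM + 1) over all distinct cells among 11129 genes found in at least 10% of cells. These correlations pool cells of 1 sample and share its groups and its detection limits. Elavl4 was most like Nhlh2 (0.77), Dcx (0.76) and Tagln3 (0.76), and Elavl3 was most like Elavl4 (0.73), Dcx (0.69) and Tubb3 (0.69). Srrm4 was most like Elavl4 (0.75), Neurod1 (0.74) and Nhlh2 (0.72). Nhlh2 and Neurod1 encode basic helix-loop-helix factors of young neurons. Elavl2 was most like Ina (0.55), Stmn2 (0.52) and Rtn1 (0.51), and Rbfox3 most like Stmn2 (0.47), Tmem178 (0.45) and Dcx (0.44). Dcx, Tubb3, Ina, Stmn2 and Rtn1 are among the markers that set the order. Nova1 was most like Sox11 (0.50), Tagln3 (0.50) and Elavl4 (0.49), which were 0.23, 0.35 and 0.36 within neural cells, and Nova2 was most like Myt1, Srrm4 (both 0.50) and Elavl4 (0.49).

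Ptbp2 was most like Sox11 (0.68), Tuba1a (0.66) and Marcksl1 (0.66), but within the neural cells these values were 0.33, 0.40 and 0.35. The likeness was thus lower among neural cells alone. Ptbp1 was most like Eif4ebp1 (0.44), the cyclin gene Ccnd2 (0.43) and Mdk (0.41), and within neural cells these were 0.51, 0.51 and 0.54. For Msi1 no gene went above 0.37 (Marcks), which at its low level is weak and was 0.12 within neural cells. The correlation of each of the 10 genes with the log2 number of genes above 0 was between 0.00 and 0.24.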

How the data were processed

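Single cells of 1 group were sequenced, and the authors deposited 1 table of 21973 genes with a column per cell. Its unit is not stated: the deposited values were taken to be TPM, because the submitters' processing notes name RSEM (with STAR and the build mm10, no versions) and each cell's values sum to 54.2% to 95.1% of the total that TPM sets. Annotation, gene filters and use of strand: not given in the sources used here. TPM keeps no read depth, so no count test was possible. Column names could not be tied to single samples, but all share 1 group.

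Cells needed at least 2000 genes above 0 and at most 20% mitochondrial share. Columns correlating above 0.93 were treated as repeats of 1 cell. Folds are ratios of mean TPM with 0.01 added, called at 2-fold, over genes at 1 TPM or more in at least 10 cells. With 1 sample there are no p-values. Code was run in Python 3.11.15 with pandas 2.3.3 and scipy 1.17.1. Only the fold calculation was tested, on random groups of the real cells with a known change put into randomly drawn genes. Motifs were counted in RefSeq windows, while identical stretches came from an older mouse transcript annotation (GENCODE M1), used without coordinates.

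The 10 genes, the marker lists and the wider list were chosen with earlier results of these data known. Named by rule were the 10 genes, the 5 highest and 5 lowest of the wider list past the fold in each comparison, and the 3 most similar genes of each of the 10. Rest, its cofactors and markers could be named as well. H19, Meg3, Rian, Mirg, Xist and Tsix were left out of the search for similar genes. Alternatives covered the column sets, the repeats, detection and fold rules, the filter, cells of many or few genes, and the ordering.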

Additional observations from a re-analysis of the deposited data

How the results depend on the processing

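With other processing, no fold of the 10 genes between groups reversed a call. The number at least 2-fold higher in bin 5 was 7 in all alternatives but 1: in cells at or below the median of genes above 0, Ptbp2 reached a log2 fold of 1.03. With a difference of mean log2(TPM + 1), Nova2 (-0.78) and Rbfox3 (-0.82) missed 2-fold between endoderm-marker and neural cells, and 5 genes of the wider list were higher there in place of 9. All 3 Elavl genes together were found in 3.77% of bin 1 and 71.7% of bin 5 cells with detection at 5 TPM, and in 3.77% of bin 1 when cells were ordered by the number of neuron markers. The causes were not tested. Ptbp1 folds of bin 5 over bin 1 ran from -3.24 to -1.41. Elavl3 was detected in 49.6% of set 1 and 62.8% of set 2 columns, and Srrm4 in 46.9% and 56.4%. Detection at 5 TPM left Nova2 in 4.71% and Msi1 in 14.9% of cells. Unknown depth limits every value of 0. No paired analysis was possible because all samples share 1 group and their numbers only name cells.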
